A study of Mus musculus with 2 samples.

Results

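Open CpG-poor promoters were the regions of accessible chromatin that lay at transcription start sites (TSSs) of protein-coding genes in sequence with few CpG dinucleotides. A shared region was a stretch of overlapping peaks with at least 1 peak from each of 2 DNase-seq libraries of mouse kidney. A shared region was a member if it touched a window of 500 bases on either side of a coding TSS in which the number of CpGs was under 0.6 of that predicted by the C and G content, and if it touched no coding TSS window at or above that ratio. By this rule 5724 of the 96735 shared regions on chromosomes 1 to 19 and X were members, 5.92% of them. Open CpG-rich promoters, the regions that touched at least 1 coding TSS window at a ratio of 0.6 or more, numbered 13636, and 77375 regions touched no coding TSS window and are called distal here.

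The tissue was whole kidney of untreated female B6CASTF1/J mice aged 8 to 10 months, the first-generation cross of C57BL/6J and CAST/EiJ, with reads placed on mm10, a C57BL/6J assembly. Only 1 group of 2 libraries was measured, so that no contrast between conditions exists and a paired permutation over the libraries cannot give a p below 0.5. All values below therefore describe these libraries, with the value of each library or the mean of both, and regions, TSSs and genes are not replicates. By their labels the libraries are biological replicates with a tissue sample each, both under the same donor entry, and separate animals are not stated, so the spread between them may be technical.

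DNase I cuts DNA that is not wrapped in nucleosomes or covered by protein, so that peaks of cuts mark accessible regions, and footprints inside a peak mark short stretches protected by bound protein. Mammalian promoters fall into a CpG-rich class, typical of genes used in most cells and open in most tissues, and a CpG-poor class, which includes many genes used in 1 or a few cell types and, more often than the CpG-rich class, carries a TATA box at which the transcription machinery assembles. In the kidney tubule, the factors HNF1 and HNF4 and the estrogen-related receptors bind promoters and enhancers of transport and metabolic genes.

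The sequences that follow are stretches of 60 bases in which an open CpG-poor promoter held a motif that a footprint of each library touched by at least 1 base. For each of 4 motifs they are the 2 strongest such promoters by signal outside annotated untranslated exons, together with promoters of listed kidney genes, which were added after the values were seen. Capitals mark the motif, which is TATAAA for the TATA box, GTTAATNAT for HNF1, CAAAGTCCA for HNF4 and TCAAGGTCA for estrogen-related receptors, read on either strand except for the TATA box, which was read on the strand of the TSS. None of these 4 motifs contains another. Sequences are from the GRCm38.p6 genome (mm10), 5′ to 3′ on the strand of the gene, and all lie upstream of the TSS. By the annotation, those of Slc34a1, Pafah2 and Mical2 lie in an intron of the gene itself, before a downstream TSS. That of Gm42791 overlaps an exon of the long noncoding RNA gene 5930430L01Rik, and the others are intergenic.
Acy3, TATA box, chr19:3986510-3986569, plus strand: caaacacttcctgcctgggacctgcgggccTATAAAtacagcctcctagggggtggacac
Id1, TATA box, chr2:152736191-152736250, plus strand: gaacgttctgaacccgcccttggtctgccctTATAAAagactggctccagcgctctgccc
Slc34a1, TATA box, chr13:55399633-55399692, plus strand: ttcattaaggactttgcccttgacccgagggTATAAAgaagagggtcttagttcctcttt
Gm42791, HNF1, chr5:148995160-148995219, minus strand: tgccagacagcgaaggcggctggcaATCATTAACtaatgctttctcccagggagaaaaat
Gm28040, HNF1, chr1:133309735-133309794, plus strand: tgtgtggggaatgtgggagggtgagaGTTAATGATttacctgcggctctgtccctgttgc
G6pc, HNF1, chr11:101367469-101367528, plus strand: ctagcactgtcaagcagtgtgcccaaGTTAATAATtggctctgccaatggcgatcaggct
Cdhr2, HNF1, chr13:54701383-54701442, plus strand: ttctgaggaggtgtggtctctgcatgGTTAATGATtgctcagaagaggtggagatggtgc
Prodh2, HNF1, chr7:30493505-30493564, plus strand: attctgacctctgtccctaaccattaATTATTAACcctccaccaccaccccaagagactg
Pafah2, HNF4, chr4:134397253-134397312, plus strand: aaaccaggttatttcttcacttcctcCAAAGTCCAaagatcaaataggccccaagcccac
Mical2, HNF4, chr7:112374266-112374325, plus strand: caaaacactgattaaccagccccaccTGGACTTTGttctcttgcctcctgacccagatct
Slc3a1, HNF4, chr17:85028282-85028341, plus strand: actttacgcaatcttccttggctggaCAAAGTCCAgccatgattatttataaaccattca
Nfkbid, Estrogen-related receptors, chr7:30421566-30421625, plus strand: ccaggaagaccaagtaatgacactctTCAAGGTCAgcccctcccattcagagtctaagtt
Galntl5, Estrogen-related receptors, chr5:25181273-25181332, plus strand: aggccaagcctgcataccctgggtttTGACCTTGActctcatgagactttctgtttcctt

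The centre of the motif lay under a footprint of both libraries in all but 3 of these promoters. In G6pc the footprints of the 2 libraries touched opposite ends of the motif, shared no base and left its centre uncovered. In Mical2 only replicate 2 covered the centre, and in Nfkbid only replicate 1. Positions are counted from the TSS as 0, with upstream bases negative. The TATA box began at -30 in Acy3, an aminoacylase gene, and at -29 in Id1 and Slc34a1. Acy3 had a signal of 9.36 in replicate 1 and 11.5 in replicate 2, and its footprints spanned chr19:3986532-3986559 and chr19:3986530-3986556. In Id1, an inhibitor of basic helix-loop-helix factors, the signal was 5.71 and 8.64, and the footprints spanned chr2:152736213-152736249 and chr2:152736211-152736255. The footprints of the 2 libraries therefore lay over the same bases of both TATA boxes. HNF1 sites lay closer to the TSS than the HNF4 site of Pafah2. In G6pc, glucose-6-phosphatase, the HNF1 site began at -66, and in Cdhr2, a cadherin of the brush border, it began at -52. In Pafah2, an acetylhydrolase of oxidized phospholipids, the HNF4 site began at -192, and in Slc3a1, the heavy subunit of the cystine transporter, it began at -68.

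Over all members, 102 regions touched the window of a CpG-poor TSS with a TATA box at -40 to -20, in 21 of them a footprint touched the box in both libraries, and in 15 the centre of the box was covered in both. An HNF1 site at -200 to -1 was found for 80 regions, touched in both libraries for 36 and covered at its centre in both for 29. An HNF4 site there was found for 42 regions, touched for 14 and covered at its centre for 7. An estrogen-related receptor site was found for 24, touched for 2 and covered at its centre for 1. These sites were placed by the TSS and need not lie inside the region itself, so the counts do not give the share of accessible sites with a footprint. A match of letters is a description of the sequence and does not show which protein was bound.

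The signal of open CpG-poor promoters lay between that of CpG-rich promoters and that of distal regions. Signal is the height of a peak in the unit the authors deposited. The median over members was 1.53 in replicate 1 and 1.58 in replicate 2, against 3.27 and 3.91 over open CpG-rich promoters and 0.901 and 0.884 over distal regions. For the mean of both libraries the medians were 1.56 over members, 3.60 over CpG-rich promoters and 0.918 over distal regions, so members stood at 0.433 of the CpG-rich median. Members ranged from 0.145 to 55.1, with lower and upper quartiles of 0.799 and 3.25. They were 260 bases wide at the median, against 280 bases for CpG-rich promoters and 225 bases for distal regions. In bulk tissue, a promoter open in fewer cells and a promoter less open in each cell cannot be told apart.

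Footprints were about as common in members as in CpG-rich promoters over all, and more common at matched low signal. A footprint was called in both libraries in 83.6% of members, 83.1% of CpG-rich promoters and 77.0% of distal regions. Neither library had one in 4.66% of members, 8.24% of CpG-rich promoters and 5.88% of distal regions. Among regions with a signal of 0.5 to 1, 72.7% of members had a footprint in both libraries, against 42.8% of CpG-rich promoters and 77.5% of distal regions. At a signal of 1 to 2 the shares were 90.1% of members, 69.2% of CpG-rich promoters and 94.98% of distal regions, and from a signal of 4 upward every member and every CpG-rich promoter had one in both. At a signal of 0.5 to 1 members were narrower, with a median of 260 bases against 360 bases for CpG-rich promoters, and over all signals their median share of G and C was 56.6% against 65.4%. The part of width and base composition in the difference was not tested.

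**Figure D1:**
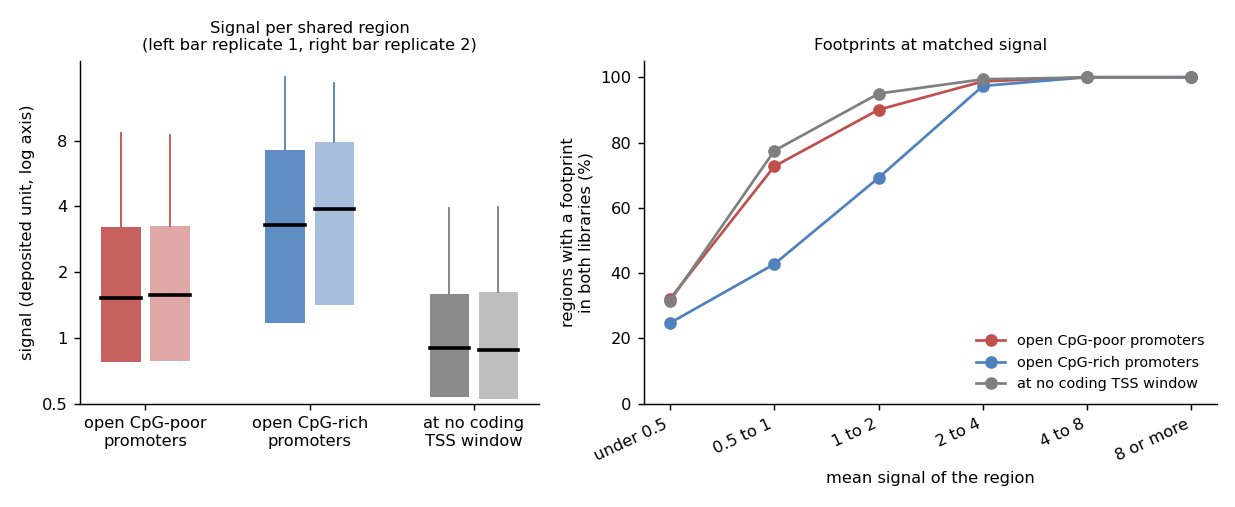
Left, signal of shared regions by class and library on a log axis, with bars from the lower to the upper quartile, black lines at the median and thin lines up to the 95th percentile. Right, share of regions with a footprint in both libraries by mean signal. The medians of the open CpG-poor promoters, 1.53 and 1.58, lie between those of the other classes in each library, and at a signal of 1 to 2 their footprint share of 90.1% is nearer to that of distal regions, 94.98%, than to that of CpG-rich promoters, 69.2%.

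Openness and signal both followed the CpG ratio within the CpG-poor class. Of coding TSSs with a ratio under 0.1, 5.76% were touched by a shared region, counting also regions that touched a CpG-rich window. The share was 13.1% at 0.1 to 0.2, 21% at 0.2 to 0.3, 34.1% at 0.3 to 0.4, 56.4% at 0.4 to 0.5 and 76.0% at 0.5 to 0.6. It was 86.8% at 0.6 to 0.7, the first interval of the CpG-rich class. For the signal, each promoter region was placed by the highest ratio of the windows it touched. Its median was 0.886 in the lowest interval, 1.56 at 0.4 to 0.5, 2.38 at 0.5 to 0.6 and 3.39 at 0.6 to 0.7. The ratio of 0.6 thus fell on a gradient and not in a gap. Just inside it, at 0.55 to 0.6, 993 members had a median of 2.63, and just outside it, at 0.6 to 0.65, 1206 CpG-rich promoters had a median of 3.08.

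**Figure D2:**
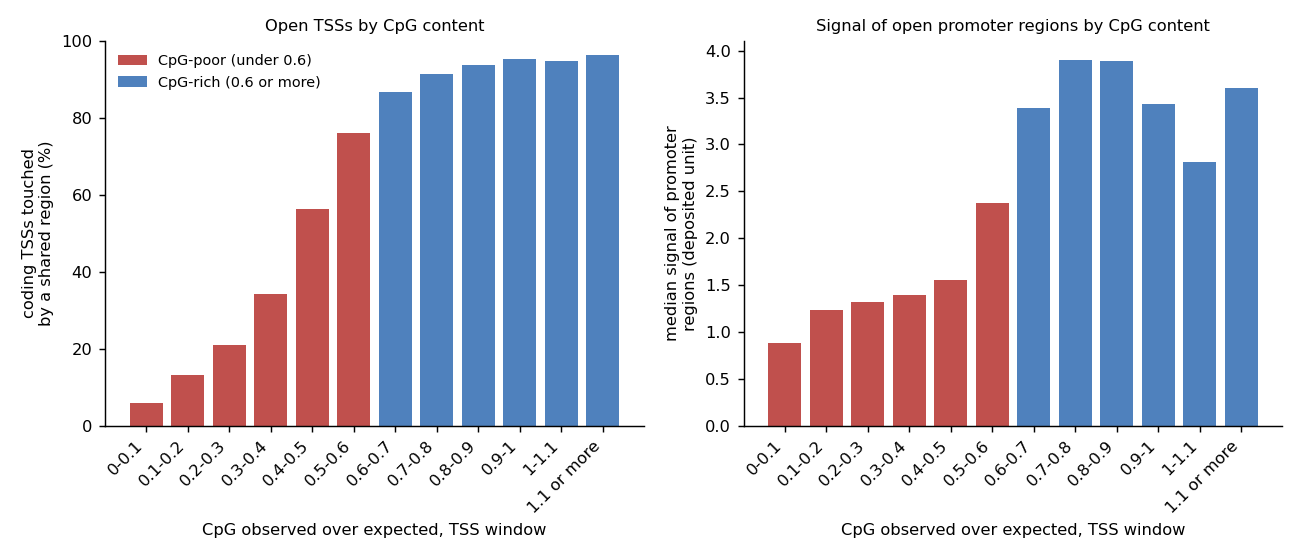
Share of coding TSSs touched by a shared region of either promoter class (left) and median signal of promoter regions (right) by the CpG observed over expected ratio of the TSS window. Red bars are CpG-poor and blue bars CpG-rich. Within the CpG-poor class the share runs from 5.76% in the lowest interval to 76.0% at 0.5 to 0.6.

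Members with the fewest CpGs differed in several ways from those near the limit. The 819 members at a ratio under 0.2 had a median signal of 1.19 in replicate 1 and 1.07 in replicate 2, the 2004 at 0.2 to 0.4 had 1.36 and 1.32, and the 2901 at 0.4 to 0.6 had 1.84 and 2.13. A difference of more than 2-fold between libraries was seen in 9.16%, 5.54% and 3.21% of these bands, in the same order. An HNF1 site lay within 150 bases of the centre of 2.69% of the lowest band, 2.40% of the middle band and 0.689% of the highest band, and an HNF4 site in 3.17%, 1.65% and 0.862%. The GC box GGGCGG, the site of SP and KLF factors, ran the other way, at 11.8%, 24.8% and 54.3%. It contains a CpG, so that its share is tied to the ratio by construction.

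In terms of genes, 10426 of 21646 protein-coding gene symbols had only CpG-poor TSSs. Of these, 3290 were open through a member region, which is 31.6%, 49 were touched only by a region that also touched a CpG-rich window, and 7087 were closed. A closed gene or TSS is one whose windows no shared region touched, so a peak in only 1 library counts as closed. Of the 11220 genes with at least 1 CpG-rich TSS, 91.7% had an open promoter. By CpG ratio, 8.84% of the 3995 genes in the band under 0.2 were open, 28.2% of 3519 at 0.2 to 0.4 and 66.8% of 2912 at 0.4 to 0.6. Olfactory and vomeronasal receptor genes made up a part of the closed genes, and without them 36.6% of CpG-poor genes were open.

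The 25 strongest members lay mostly near the upper limit of the CpG ratio. Dynlt1b, a dynein light chain gene, had the highest signal, 48.9 in replicate 1 and 61.2 in replicate 2, at chr17:6429981-6430180. It stood apart from the rest, and the annotation holds the similar genes Dynlt1a, Dynlt1c and Dynlt1f, so that the placement of its reads is uncertain. Nr1d1, the circadian repressor REV-ERB alpha, followed with 26.0 and 20.9 at chr11:98775241-98775580. Flad1, FAD synthase, had 21.3 and 24.7. Rab5b, a GTPase of early endosomes, had 24.8 and 20.9. Nfe2l2, the oxidative stress factor NRF2, had 22.9 and 20.5. The order of these 4 genes was not the same in the 2 libraries, and their mean signals of 21.7 to 23.4 differed by less than the SD of 3.58 of Nr1d1.

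The other 20 had mean signals between 16.4 and 21.3. They included enzymes (Fn3krp, which repairs glycated proteins, Glo1, which detoxifies methylglyoxal, Nadsyn1, which makes NAD, and Mvd of the mevalonate pathway) and trafficking genes (Hip1, a clathrin adaptor, Copg1 of the COPI coat, Bicdl1, a dynein adaptor, and Wdr19 of intraflagellar transport). Regulators among them were Tef, a circadian transcription factor, Chd8, a chromatin remodeller, Zfp809, which silences retroviral sequence, and Mypop. The others were Abcb9, a lysosomal peptide transporter, Stom, a membrane protein, Pxmp4 of the peroxisome, the kinase Tesk1, Nol6 of the nucleolus, Arrdc4, Tldc1 and Fam214b. Among the 25, only Tef at 0.272 and Tldc1 at 0.345 had a CpG ratio under 0.4. Tef had 22.2 in replicate 1 and 15.8 in replicate 2, and Tldc1 had 17.1 and 21.6. The region of Nadsyn1 also touched a TSS window of Dhcr7.

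Gene lists for the cell types of the kidney, set beside the 31.6% of all CpG-poor genes, were mostly open. Counts below are of listed genes whose coding TSSs are all CpG-poor. Of proximal tubule genes, 19 of 22 apical transporters, 12 of 15 basolateral transporters, 14 of 16 genes of endocytosis and the brush border and 28 of 30 metabolic genes were open. The median signals of their open members were 2.23, 1.94, 2.74 and 2.59, in the same order, against 2.12 over all open CpG-poor genes. The lists were therefore more often open than CpG-poor genes in general, while their open members had signals close to the general median. Over the nephron lists joined, the share open was high at every CpG ratio, with 32 of 37 genes under 0.2, 49 of 61 at 0.2 to 0.4 and 28 of 30 at 0.4 to 0.6.

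Among apical transporters of the proximal tubule, Slc13a2, which takes up citrate and other dicarboxylates, had a signal of 4.26 in replicate 1 and 5.15 in replicate 2. Slc7a9, the light subunit of the cystine transporter, had 5.55 and 3.83. Slc5a11, a sodium and inositol cotransporter, had 5.04 and 3.16, and Slc34a1, the main phosphate transporter of the brush border, had 3.22 and 2.83. Which of the first 3 was highest differed between the libraries. The lowest open genes of the list were Slc13a1 at 0.802 and Slc7a12 at 0.656 in mean signal, and Slc22a13, Slc7a13 and Slc22a30 were closed. The glucose transporter gene Slc5a2, the target of gliflozin drugs, had 1.38 and 0.967, below the median of the list.

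Among basolateral transporters, Kcnj16, a potassium channel subunit, had 7.81 in replicate 1 and 3.64 in replicate 2, the widest gap of the list. Abcc6, an efflux transporter, had 4.39 and 3.79, and Slc26a1, a sulfate exchanger, had 4.56 and 2.28. All 3 were higher in replicate 1, as were 11 of the 12 open genes of the list. Slc22a8, Slco1a1 and Kcnj15 were closed.

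Among brush border genes, Ggt1, which cleaves glutathione at the cell surface, had 8.26 in replicate 1 and 5.37 in replicate 2. Enpep, an aminopeptidase that cleaves angiotensin peptides, had 5.14 and 5.08, Treh, trehalase, had 4.97 and 3.84, and Pdzk1, a scaffold of apical transporters, had 3.79 and 3.82. Enpep and Pdzk1 were nearly equal in the libraries. Mep1b was closed, while the related peptidase gene Mep1a was open with 2.17 and 2.06.

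The metabolic list held the highest proximal tubule values. Pck1, phosphoenolpyruvate carboxykinase of gluconeogenesis, had 7.62 in replicate 1 and 6.52 in replicate 2, and Ddo, which oxidizes D-aspartate, had 8.67 and 4.07. Miox, which opens the ring of inositol, had 5.48 and 6.28, and Khk, ketohexokinase of fructose metabolism, had 4.99 and 5.93. The order of Pck1 and Ddo was not the same in the libraries. Cyp4a14 and Cyp27b1, the enzyme that activates vitamin D, were closed. At the low end, Kap, the androgen-regulated kidney protein, had 0.661 and 0.584, Akr1c21 had 0.571 and 0.300, and Cyp2j13 had 0.380 and 0.450.

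**Figure D3:**
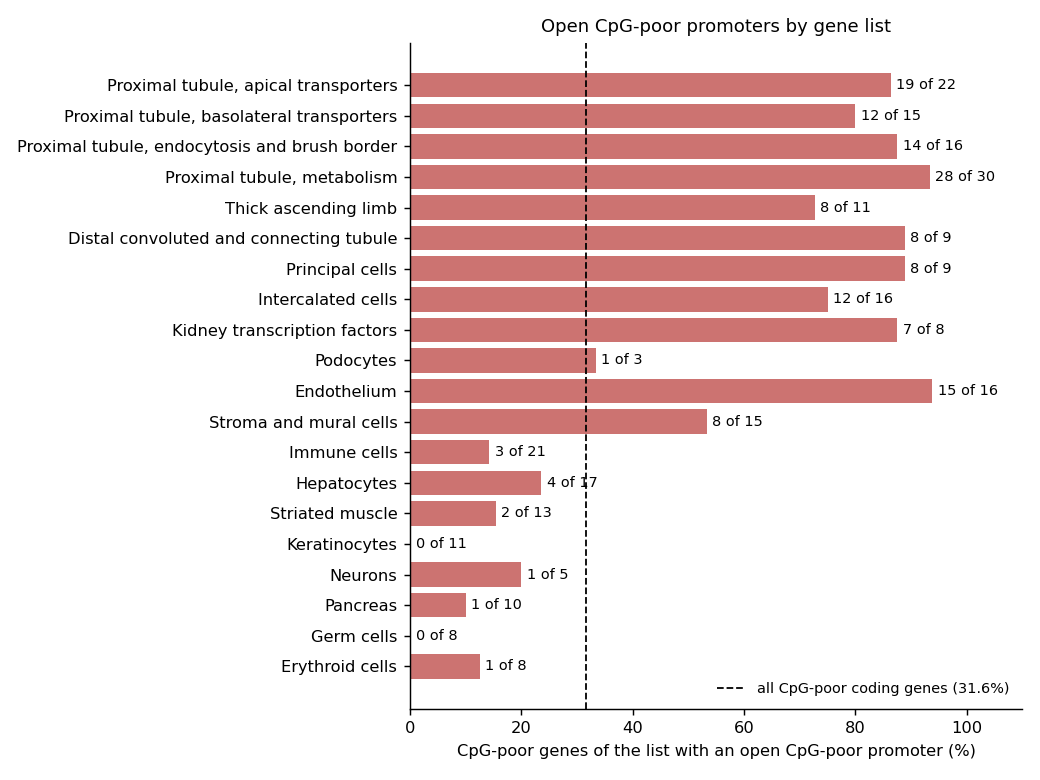
Share of the CpG-poor genes of each list that had an open CpG-poor promoter, with the counts beside the bars. The dashed line is the share over all CpG-poor coding genes, 31.6%. The bars of the 8 tubule lists lie between 8 of 11 and 28 of 30, and those of genes of other tissues lie to the left of the line.

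In the later nephron, 8 of 11 genes of the thick ascending limb, 8 of 9 of the distal convoluted and connecting tubule, 8 of 9 of principal cells and 12 of 16 of intercalated cells were open. Their median signals were 3.17, 1.25, 1.12 and 1.19, in the same order. Umod, the main urinary protein of the thick ascending limb, had 6.76 in replicate 1 and 3.94 in replicate 2, and Egf had 4.95 and 5.73. Kcnj1, the potassium channel ROMK, had 4.52 and 2.81. Umod and Kcnj1 were thus higher in replicate 1, and Egf in replicate 2. Slc12a1, the salt transporter blocked by loop diuretics, had 1.91 and 1.51. Cldn19, Casr and Tmem207 were closed, and Cldn16 was among the weakest open promoters of all lists, with 0.389 and 0.325.

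Wnk4, a kinase that controls distal salt transport, led the distal tubule list with 6.06 in replicate 1 and 4.01 in replicate 2. The centre of its region lay at -597 from the TSS, so that the region reached only the edge of the window and did not cover the TSS. Fxyd2, a sodium pump subunit, had 2.87 and 2.28, Klk1, a kallikrein, 1.74 and 1.55, and Slc12a3, the thiazide-sensitive salt transporter, 1.82 and 1.21. All 4 were higher in replicate 1. Pvalb had only 0.322 and 0.400, and Trpv5, a calcium channel, was closed. In principal cells, Scnn1a, the alpha subunit of the epithelial sodium channel, had 3.76 and 2.40, St6gal1 had 1.51 and 2.53, and the water channel genes Aqp3 and Aqp4 had 1.41 and 1.70, and 1.72 and 0.625. Aqp2, the water channel controlled by vasopressin, was the only closed gene of the list.

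In intercalated cells, Atp6v0a4, a proton pump subunit, had 7.24 in replicate 1 and 5.27 in replicate 2, and Hepacam2 had 5.86 and 5.38, at a region that also touched a TSS window of Vps50. Rhbg, an ammonium transporter, had 2.27 and 2.66, and Tmem213 had 1.71 and 1.53, at a region that also touched a window of Atp6v0a4. The other open genes were weaker. Foxi1, the transcription factor of these cells, had 0.430 and 0.342, and Slc26a4, the bicarbonate exchanger pendrin, had 0.314 and 0.492. Slc4a1, Slc4a9, Aqp6 and Clnk were closed.

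Of 8 CpG-poor genes for kidney transcription factors, 7 were open, with a median of 3.17. Tfcp2l1, a factor of the collecting duct, had 5.32 in replicate 1 and 7.28 in replicate 2. Pax8, a factor of the whole tubule, had 5.17 and 6.70, Hnf4a had 4.06 and 4.09, and Nr1h4, the bile acid receptor FXR, had 2.90 and 3.44. These 4 were higher in replicate 2, though Hnf4a was nearly equal. Nr1i3 was closed.

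**Figure D4:**
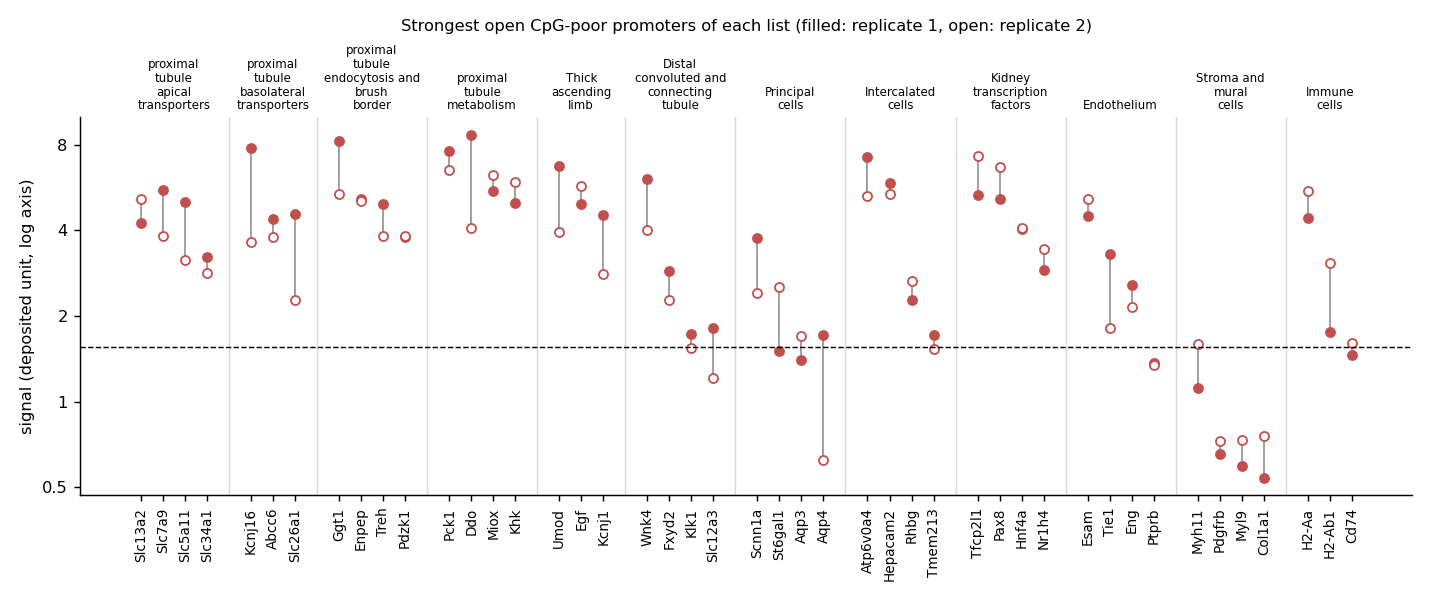
Signal of the strongest open CpG-poor promoters of 12 lists, up to 4 a list, on a log axis. Filled points are replicate 1, empty points replicate 2, grey lines join the libraries of a gene, and the dashed line is the median over all members, 1.56. The points of the stroma and mural cell list lie at or below the dashed line but for Myh11 in replicate 2.

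Lists for other cells of the kidney varied more. Of endothelial genes, 15 of 16 were open, with a median of 0.987 and only Mmrn2 closed. Esam, an adhesion protein, had 4.48 in replicate 1 and 5.15 in replicate 2, Tie1, a receptor kinase, 3.31 and 1.82, Eng, endoglin, 2.56 and 2.16, and Ptprb, a phosphatase, 1.37 and 1.35. Of stromal and mural genes, 8 of 15 were open, with a median of 0.604, led by Myh11, smooth muscle myosin, with 1.12 and 1.59. Pdgfrb, the receptor of pericytes, had 0.653 and 0.725, Myl9 had 0.595 and 0.734, and Col1a1 had 0.537 and 0.759. All 4 were higher in replicate 2. Acta2, Tagln, Cnn1, Ren1, Rgs5, Lum and Postn were closed.

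Of 21 immune genes, 3 were open, and all 3 belong to antigen presentation. H2-Aa had 4.42 in replicate 1 and 5.51 in replicate 2, H2-Ab1 had 1.76 and 3.07, and Cd74, the invariant chain, had 1.46 and 1.61. The pan-leukocyte gene Ptprc, the T cell genes Cd3e, Cd4 and Cd8a, the B cell genes Cd79a and Ms4a1, and the macrophage genes Adgre1, Csf1r, Cd68, C1qa and C1qb were closed. The same held for Lyz2, Itgam, Nkg7, Tyrobp, Coro1a and S100a8. Of the 3 CpG-poor podocyte genes, Tcf21 was open with 0.835 and 1.05, and Nphs1, nephrin of the slit diaphragm, was closed.

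Genes of other tissues were mostly closed, as were CpG-poor genes in general, of which 31.6% were open. No CpG-poor keratinocyte gene of 11 and no germ cell gene of 8 was open. Of hepatocyte genes, 4 of 17 were open, Fga with 1.69 in replicate 1 and 2.17 in replicate 2, Apob with 1.37 and 1.74, Cyp8b1 with 0.910 and 0.642 and Alb, serum albumin, with 0.455 and 0.292. Of striated muscle genes 2 of 13 were open, Ttn with 1.46 and 1.70 and Ryr1 with 0.446 and 0.475. Single genes were open among 5 neuronal genes (Syp, 1.55 and 2.04), 8 erythroid genes and 10 pancreatic genes. The pancreatic gene was Cela1, an elastase gene, with 4.94 and 3.41, the highest value in any list of another tissue.

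The closed hepatocyte genes were Apoa1, Apoa2, Fgb, Fgg, Serpina1a, Ttr, Cyp7a1, Cps1, Tat, Ahsg, Hp, F2 and Cyp2c29. In muscle they were Myh6, Myh7, Actc1, Acta1, Ckm, Tnnt2, Tnnt3, Tnni3, Myl2, Myl7 and Mb, and among neuronal genes Snap25, Syt1, Slc17a7 and Stmn2. The closed pancreatic genes were Ins1, Ins2, Gcg, Sst, Prss1, Amy2a5, Cpa1, Pnlip and Cel. The closed erythroid genes were the globin genes Hba-a1, Hba-a2, Hbb-bs and Hbb-bt, with Alas2, Epb42 and Klf1. Closed keratinocyte genes were Krt5, Krt14, Krt1, Krt15, Lor, Ivl, Flg, Dsg3, Sprr1a, Trp63 and Dsg1a, and closed germ cell genes were Prm1, Prm2, Tnp1, Acrv1, Odf1, Zp3, Zp2 and Oosp1.

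Gene families defined by symbol spanned nearly the whole range, with 31.6% of all CpG-poor genes open. Of 1132 CpG-poor olfactory receptor genes, 9 were open, 0.795%, and the strongest, Olfr1441, had a mean signal of 0.676. Of 329 vomeronasal receptor genes 1 was open, and of 22 major urinary protein genes and 18 type I interferon genes none. At the other end, 15 of 19 glutathione S-transferase genes were open with a median of 3.70. Gstm1, which conjugates glutathione to toxic compounds, had 16.3 in replicate 1 and 12.4 in replicate 2. Of 173 zinc finger genes 124 were open, 71.7%, with Zfp809 and Zfp846 the strongest at 17.0 ± 2.96 and 15.8 ± 0.928 (mean ± SD, n = 2). Members of these families resemble each other in sequence, so that reads of a closed gene may have been dropped or placed elsewhere by the authors' mapping.

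Solute carrier genes were open in 110 of 186 cases, 59.1%. Their strongest members were Slc16a13, a monocarboxylate carrier family gene, at 12.1 ± 1.97 and Slc25a44, a mitochondrial carrier, at 11.96 ± 0.792. Cytochrome P450 genes of families 2 to 4 were open in 30 of 75 cases, led by Cyp4f13 at 12.6 ± 3.27. Of 9 aquaporin genes 5 were open, with Aqp1, the water channel of the proximal tubule, at 5.69 in replicate 1 and 4.79 in replicate 2. Keratin and keratin-associated protein genes were open in 6 of 109 cases, led by Krt8, the keratin of simple epithelia, at 2.68 and 2.95. Interleukin and interleukin receptor genes were open in 20 of 72 cases and chemokine genes in 7 of 31.

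Not all members were the sole promoter of their gene. The nearest CpG-poor TSS belonged to a gene with only CpG-poor TSSs for 4249 members, 74.2%, and to a gene that also has a CpG-rich TSS for the other 1475. Of 4553 genes with both kinds of TSS, 1092 had a member, and 1020 of these also had an open CpG-rich TSS. Members at genes with only CpG-poor TSSs had a median signal of 1.61 in replicate 1 and 1.68 in replicate 2, against 1.36 and 1.31 at genes with both kinds. They also covered the TSS more often, in 67.2% against 53.6% of cases. Members fell to 4289 nearest genes, of which 1097 had at least 2. Plec, the cytoskeletal linker plectin, had the most with 8, on chromosome 15, with mean signals from 1.11 to 3.98, and Zmynd8, Ablim1 and Fry had 6 each.

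Members sat over the TSS in the same way as CpG-rich promoters did. The median centre lay at -24 from the nearest TSS in members and at -28 in CpG-rich promoters. The centre was within 100 bases of the TSS in 54.6% of members and 52.7% of CpG-rich promoters, and the region covered the TSS in 63.7% and 64.5%. CpG-poor windows of 2 or more genes were touched by 2.53% of members. CpG-rich windows of 2 or more genes were touched by 9.81% of CpG-rich promoters. A region at windows of both kinds was CpG-rich by the rule, so these shares do not compare sharing between genes on equal terms. The classes differed in their place on the X chromosome, which held 4.21% of members, against 2.46% of CpG-rich promoters and 2.14% of distal regions. Of the 656 CpG-poor genes on X, however, 25.9% were open, against 31.6% of all CpG-poor genes. Transcripts of the best support level made up 60.6% of the TSSs nearest to members, against 41.9% of all CpG-poor TSSs.

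The 200 kb with the most members held 17, at chr3:89226419-89421660, between Mtx1 and Shc1, with Muc1, Efna1, Zbtb7b and Flad1 among its 9 genes and Flad1 the strongest at 23.0. A second group of 16 at chr7:141276681-141469209 held 8 genes, among them Cdhr5 of the brush border and Cd151, the strongest at 5.94. The next were 14 at chr3:88424580-88622912, led by Slc25a44, 13 at chr9:107547201-107710520, with the hyaluronidase genes Hyal1, Hyal2 and Hyal3, and 12 at chr14:55478681-55660580, with Pck2 and the proteasome activator genes Psme1 and Psme2.

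TATA boxes were rarer at open than at closed CpG-poor TSSs. The letters TATAAA lay wholly within -40 to -20 at 96 of 8354 open CpG-poor TSSs, 1.15% (exact binomial 95% interval 0.932 to 1.40%). They lay there at 532 of 20918 closed CpG-poor TSSs, 2.54% (2.33 to 2.77%), and at 0.585% of open CpG-rich TSSs. Over all coding TSSs the share was 1.43%. Farther upstream, at -100 to -80, the shares were 0.203% of open (17 TSSs) and 0.626% of closed CpG-poor TSSs (131 TSSs). The letters were thus also rarer at open TSSs away from the usual place, and by a larger factor. The lower share at -40 to -20 was therefore not particular to the usual place of the box. The CpG ratio moved with openness, and its part in the difference was not tested over all TSSs. Within bands of the CpG ratio the open share was lower as well. Under 0.2 it was 2.04% (25 of 1226) against 3.41% (342 of 10041). At 0.2 to 0.4 it was 1.41% (41 of 2904) against 1.95% (164 of 8398). At 0.4 to 0.6 it was 0.710% (30 of 4224) against 1.05% (26 of 2479), on few boxes. No intervals were computed within the bands. Intervals cover counting error only, and TSSs of a gene often share sequence.

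The CCAAT box, read on either strand at -120 to -40, was found at 17.6% of open and 13.8% of closed CpG-poor TSSs, and at 18.3% of open CpG-rich TSSs. Among open CpG-poor TSSs it was found at 26.2% of the strongest 2089, against 14.1% of the weakest 2089. TATA boxes were found at 18 of the strongest, 0.862% (0.511 to 1.36%), and at 33 of the weakest, 1.58% (1.09 to 2.21%). These intervals overlap. In the groups between, from weaker to stronger, the shares were 1.58% and 0.574%, so no steady trend with signal was seen.

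Within 150 bases of the region centres, on both strands, members held motifs of kidney factors more often than CpG-rich promoters and less often than distal regions. The HNF1 motif was found in 1.57% of members, 0.279% of CpG-rich promoters and 2.39% of distal regions, with 0.884% of windows of the same length around closed CpG-poor TSSs and 0.612% of windows around all coding TSSs. The HNF4 motif was found in 1.47% of members, 0.367% of CpG-rich promoters and 1.88% of distal regions, with 0.526% of closed CpG-poor and 0.426% of all coding TSS windows. The estrogen-related receptor motif was found in 0.542% of members, 0.227% of CpG-rich promoters and 1.07% of distal regions, with 0.660% of closed CpG-poor and 0.372% of all coding TSS windows. For the AP-1 motif TGANTCA the shares were 7.84%, 3.42% and 10.9%, with 9.27% of closed CpG-poor and 6.03% of all coding TSS windows. HNF1 and HNF4 motifs were thus more frequent in members than at closed CpG-poor TSSs, and AP-1 motifs less frequent. The estrogen-related receptor motif was found in only 31 members. Its slightly lower share there, without an interval, does not show a difference from closed CpG-poor TSSs. The GC box was found in 37.9% of members, 69.9% of CpG-rich promoters and 11.5% of distal regions, with 11.5% of closed CpG-poor and 44.2% of all coding TSS windows.

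Motifs also differed in how often a footprint lay over them. Over all bases of members, 9.30% lay in footprints of both libraries, against 15.97% in CpG-rich promoters and 6.24% in distal regions. In members the centre of the NRF1 motif GCGCATGCG was covered in both libraries in 83.3% of 96 sites, that of the cAMP response element TGACGTCA in 63.3% of 90 and that of the GC box in 44.1% of 3750. The core AGGGGGC of the CTCF site was covered in 42.0% of 686 sites. The HNF1 motif was covered in 32.2% of 90 sites in members (22.8 to 42.9%), against 17.9% of 39 sites in CpG-rich promoters and 15.6% of 1826 in distal regions. The HNF4 motif was covered in 17.1% of 82 sites in members, against 17.2% of 58 in CpG-rich promoters and 17.3% of 1423 in distal regions.

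The other motifs of members lay on both sides of the level of all bases. Above it were the YY1 motif AAGATGGCG, covered in 28.0% of 50 sites, the E-box CACGTG in 26.6% of 482, the ETS motif CCGGAAG in 18.5% of 464 and the CCAAT box in 13.0% of 2649. The estrogen-related receptor motif was covered in 15.6% of 32 sites, with an interval of 5.28 to 32.8% that holds the level of all bases. The others were covered less often. TATA boxes anywhere in a member were covered in 5.46% of 421 sites, AP-1 motifs in 5.71% of 473, GATA motifs (AGATAAG) in 2.61% of 115 and forkhead motifs (TGTTTAC) in 0.505% of 198. RUNX motifs (TGTGGTT) were covered in 4.56% of 263 sites, steroid receptor motifs (ACANNNTGT) in 3.54% of 339 and POU octamers (ATGCAAAT) in 1.12% of 89. TEAD motifs (ACATTCC) were covered in 6.56% of 259 sites, with an interval of 3.87 to 10.3% that also holds the level of all bases.

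Several motifs were more frequent in members than at closed CpG-poor TSSs. NRF1 motifs were found in 0.961% of members, 0.210% of closed CpG-poor and 1.78% of all coding TSS windows. In the same order, the shares were 1.502%, 0.598% and 1.896% for the cAMP response element, 11.7%, 5.44% and 11.7% for the CTCF core, 7.42%, 2.55% and 10.6% for ETS, 7.70%, 3.69% and 6.94% for the E-box and 0.908%, 0.234% and 2.10% for YY1. TATA boxes ran the other way, at 7.18%, 17.2% and 9.42%, as did GATA motifs at 2.06%, 3.86% and 2.26%, RUNX motifs at 4.47%, 6.89% and 4.303% and steroid receptor motifs at 5.94%, 8.31% and 5.06%. CCAAT boxes had 34.8%, 35.9% and 33.4%, forkhead motifs 3.67%, 3.81% and 2.69%, TEAD motifs 4.39%, 4.88% and 3.12% and POU octamers 1.59%, 1.54% and 1.22%. The most covered motifs, NRF1, the cAMP response element and the GC box, all contain a CpG. The ETS, E-box and YY1 motifs do as well, and the CTCF core does not. Shares of motifs that contain a CpG are tied to the CpG ratio by construction.

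**Figure D5:**
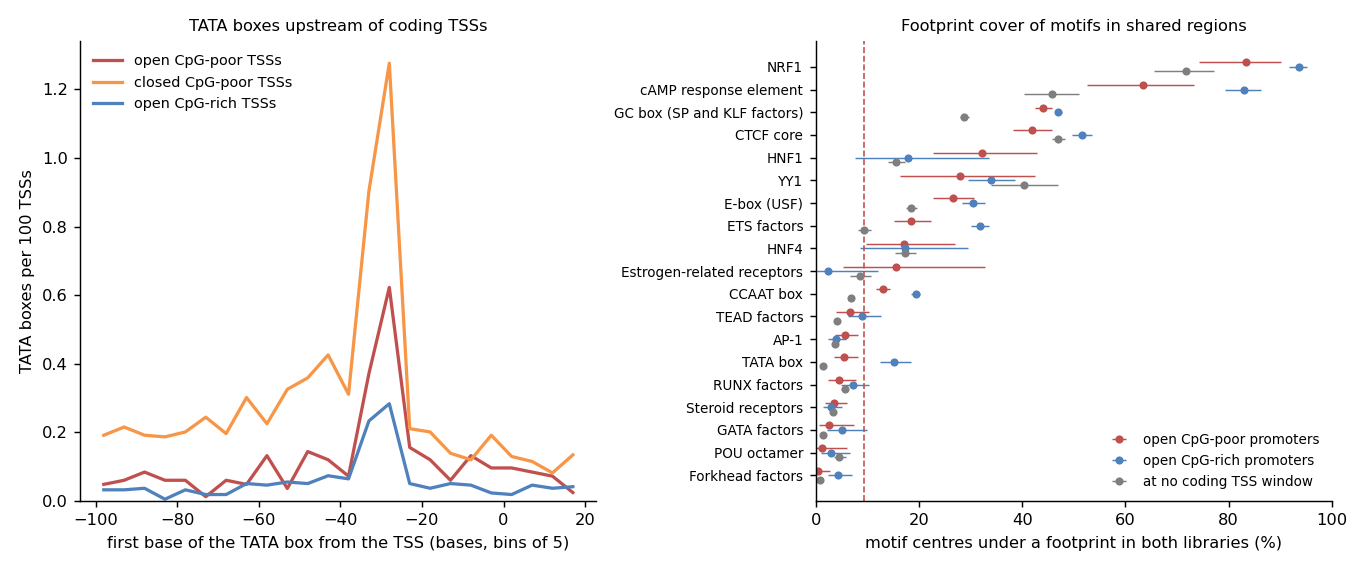
Left, TATA boxes per 100 TSSs by the position of their first base from the TSS, in bins of 5 bases. Right, share of motif centres under a footprint in both libraries by class of region, with exact binomial 95% intervals and a dashed line at the 9.30% of all bases of open CpG-poor promoters. TATA boxes peak between -30 and -26 in each class of TSS, and HNF1 sites were covered in 32.2% of cases in open CpG-poor promoters against 15.6% at no coding TSS window.

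Open CpG-poor genes had more distal regions around them than closed ones. Within 10 kb of any of their TSSs, open CpG-poor genes had on average 1.63 shared distal regions and closed CpG-poor genes 0.617, a ratio of 2.64. At least 1 was found at 68.8% of open and 34.4% of closed CpG-poor genes. Within bands of the CpG ratio the gap narrowed as the ratio rose. The means were 1.61 against 0.404 under 0.2, 1.71 against 0.808 at 0.2 to 0.4 and 1.59 against 0.935 at 0.4 to 0.6. Genes with several TSSs were searched over more sequence, and no adjustment was made for this. With the peaks of replicate 1 alone the means were 2.29 and 0.858, and with those of replicate 2 alone 2.13 and 0.810. Open genes with a CpG-rich TSS had a mean of 1.79, and closed ones 1.04. Among open CpG-poor genes the mean was 1.05 in the 823 with the lowest signal, 1.63 and 1.89 in the next groups and 1.95 in the 823 with the highest. Without olfactory and vomeronasal receptor genes the ratio of open to closed was 2.17.

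The libraries agreed more closely on members than on distal regions and less closely than on CpG-rich promoters. The signal differed by more than 2-fold in 4.87% of members, 2.19% of CpG-rich promoters and 14.2% of distal regions. Across regions Spearman's rho between libraries was 0.937 for members, 0.975 for CpG-rich promoters and 0.815 for distal regions, a description over regions that share libraries and depth. Of 279 members beyond 2-fold, 161 were higher in replicate 2 and 118 in replicate 1. The most extreme were Polr2m, with 0.367 in replicate 2 and 2.00 in replicate 1, and Prss57, a serine protease gene, with 5.58 in replicate 2 and 1.52 in replicate 1.

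Members with an HNF1 or HNF4 motif were mostly lower in replicate 2. The 89 members that held an HNF1 motif had a median log2 ratio of replicate 2 over replicate 1 of -0.40, with 69 higher in replicate 1, and the 82 with an HNF4 motif had -0.30, with 60 higher in replicate 1. The median over all members was 0.02. Members with an AP-1 motif also had a median below 0, at -0.12, with 259 of 441 higher in replicate 1. Members with a CTCF core had a median of 0.13, and 250 of 638 were higher in replicate 1. The open promoters of the proximal tubule lists moved the same way, with medians of -0.32 for apical transporters, -0.37 for basolateral transporters, -0.06 for brush border genes and -0.26 for metabolic genes, and those of the thick ascending limb had -0.27. Endothelial genes also had a median below 0, at -0.11 with 11 of 15 higher in replicate 1, while kidney transcription factors had 0.01, with 3 of 7 higher in replicate 1. The distal convoluted and connecting tubule had -0.12, principal cells -0.19 and intercalated cells -0.16. For stromal and mural genes the median was 0.25, with 6 of 8 higher in replicate 2, and the 3 immune genes were all higher in replicate 2. The cover of HNF1 motifs by footprints was also lower in replicate 2, at 34.4% of sites against 53.3% in replicate 1. Members at a CpG ratio under 0.2 also had a lower median signal in replicate 2, at 1.07 against 1.19. Those at 0.4 to 0.6 had a higher one, at 2.13 against 1.84. The parts of the CpG ratio and of cell composition in these shifts were not tested.

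Of all CpG-poor promoter peaks of a single library, most were shared. In replicate 1, 5779 of 6941 merged peaks at CpG-poor promoters lay in a shared region, 83.3%, and in replicate 2, 5726 of 6859, 83.5%. At CpG-rich promoters the shares were 87.5% and 88.2%, and at distal regions 69.6% and 77.5%. Those found in 1 library only were weak, with median signals of 0.463 in replicate 1 and 0.450 in replicate 2. At a signal of 2 or more, 98.7% of CpG-poor promoter peaks of replicate 1 and 99.6% of those of replicate 2 were shared. Of the unshared ones, 36.8% of replicate 1 and 19.8% of replicate 2 still held bases that the other library listed at a false discovery rate of 0.05 or less. Of the 7087 closed CpG-poor genes, 119 held such bases in both libraries at a TSS window, 1.68%, against 11.3% of 931 closed genes with a CpG-rich TSS. Counted by library, 408 closed CpG-poor genes held such bases in replicate 1, 5.76%, and 409 in replicate 2, 5.77%. The shares of closed genes with a CpG-rich TSS were 18.6% and 30.9%.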

How the data were processed

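DNase-seq was analysed from the processed files of 2 libraries of 1 group. Per the file headers, each file was made from the filtered alignments of its own library on mm10, with no pooling. The aligner and callers were not given in the sources used here. The peak lists carry a signal deposited by the authors. Its values were whole multiples of 0.00827 and 0.00834 within 0.05 of a step in 100% of peaks, so that a step may be 1 tag in tags per M tags, which would put the depth at 120.9 M and 119.9 M. This is inferred. The deposited false discovery rate (q-value) file lists runs of bases, and footprints carry a constant q-value of 0.01 set by the authors. The longer of the 2 peak lists of each library was used, with 137083 and 125000 peaks, and 23 and 24 peaks on chromosome Y were left out.

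Overlapping peaks (at least 1 base) were merged, and regions with a peak of each library kept the highest signal of each. TSSs were those of protein-coding transcripts of GENCODE M21, and CpG ratios came from GRCm38.p6. Work was done in Python 3.11.15 with numpy 2.4.6, pandas 2.3.3 and scipy 1.17.1. The overlap, ratio and motif steps were tested on simulated data. Named genes are the 25 strongest members, the first 4 open genes by signal and the closed genes of each of 20 lists, and the 5 densest clusters. Others were named after their values were seen. Some genes of the lists are not reported here. The members and lists were chosen with earlier results of these data known. Alternatives were the peak list, peak strength, window, CpG limit, overlap, transcripts and each library alone.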

Additional observations from a re-analysis of the deposited data

How the results depend on the processing

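No paired analysis was possible because there is 1 group. The direction of each comparison was the same under every alternative run: the ratio of signals of open CpG-poor over CpG-rich promoters stayed under 1, TATA boxes stayed rarer at open than at closed CpG-poor TSSs, and distal regions stayed more frequent at open genes. Results of each library alone differed little, so that most alternatives moved a value by more than 1 SD. Leaving out 1 library gave 6859 to 6941 regions, with 34.0 to 34.1% of genes open. The median signal was then 1.199 to 1.217 and the signal ratio 0.383 to 0.455. TATA boxes lay at 1.10 to 1.12% of TSSs, and the distal ratio was 2.68 to 2.73. A footprint of the library kept lay in 81.2 to 81.8% of regions, a looser measure than a footprint in both libraries. By that measure the members had 89.6% in replicate 1 and 89.3% in replicate 2. The share of CpG-poor genes open (31.6%) became 26.7% with the shorter peak list, 24.0% with the stronger 50% of peaks, 28.6% and 37.8% with windows of 100 and 2000 bases, 23.7% and 47.0% with CpG limits of 0.5 and 0.75, 31.1% with 50% overlap and 36.6% without olfactory and vomeronasal receptor genes. In the same order, up to the overlap, the median signal (1.56) became 2.17, 2.33, 1.83, 1.36, 1.36, 2.15 and 1.596, and it was 1.68 with basic transcripts. The share with a footprint in both libraries (83.6%) became 92.0%, 94.7%, 86.9%, 83.0%, 83.1%, 84.5% and 84.3%. The signal ratio (0.433) became 0.501 with the shorter list, 0.498 with stronger peaks, 0.371 and 0.570 with the windows and 0.590 at a limit of 0.75. The TATA share (1.15%) became 0.974%, 1.04%, 1.11%, 1.34%, 1.39% and 0.939% under the first 6, and 1.36% with basic transcripts. The distal ratio (2.64) became 2.55 with the shorter list, 3.72 with stronger peaks, 2.79 with windows of 2000 bases, 2.72 at a limit of 0.5 and 2.17 without the receptor genes. The count of regions was 10327 at a limit of 0.75 and within 1.5 times of 5724 in all other cases. The alternative without receptor genes was chosen after seeing the data. The cause was not tested. The share of genes open rests on the peak threshold and on depth, and weak promoters, of rare cells for example, may go unlisted. The hybrid genome, mapped to 1 parent, and similar gene copies may lower signal, and neither was tested.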
